A study of Mus musculus with 27 samples.

Results

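The genes described here encode 10 receptors for opioid and other neuropeptides: the opioid receptors Oprm1 (mu), Oprd1 (delta), Oprk1 (kappa) and Oprl1 (nociceptin), the neuropeptide Y receptors Npy1r and Npy2r, the galanin receptor Galr1, the cholecystokinin receptor Cckbr, the somatostatin receptor Sstr2 and the orphan receptor Gpr151. They were listed by gene symbol, with earlier results of these data known, from the 55367 genes of a count table of mouse dorsal root ganglia. All 10 passed the filter on low counts and were among the 18517 genes tested.

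The ganglia, L4-L5 dorsal root ganglia, contain the somata of sensory neurons whose axons run in the sciatic nerve, and their polyadenylated RNA was sequenced in bulk. There were 5 groups of 3 libraries: wild-type mice after sham surgery, wild-type mice with a sciatic nerve injury, Ptpn2 KO mice after sham surgery, Ptpn2 KO mice with the injury, and wild-type mice with the injury whose sciatic nerve was injected with RU521, an inhibitor of the DNA sensor cGAS. Samples were taken 3 days after injury. Ptpn2 encodes a tyrosine phosphatase that dampens JAK and STAT signalling. The titles abbreviate the knockout as cko and call the sham group intact. The promoter that drives Cre in the ganglia, the strain, age and sex of the mice, any vehicle given to injured wild types, and whether replicates are separate animals are not given in the labels, so p-values measure only the spread between these libraries.

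Library totals ran from 14813365 to 22414750 counts, with 26235 to 34340 genes detected. Ptpn2 itself lay at 11.6 to 19.3 CPM (the gene's share of a TMM-scaled library, in parts per mega-count) in wild-type sham, 10.5 to 15.8 CPM in knockout sham, 15.9 to 19.8 CPM in wild-type injured and 18.5 to 26.5 CPM in knockout injured libraries. Because all exons are summed, this level does not check the genotype, and directions below rest on the labels. Replicate 2 of the wild-type sham group stood apart from the rest of its group. Its 12 pan-neuronal markers summed to 8282 CPM, against 18071 and 16788 CPM in the other wild-type sham libraries, and its mitochondrial share was 15.2% against 4.87% and 6.52%. Replicate 1 of the RU521 group stood apart too, with 15258 CPM of pan-neuronal and 1049 CPM of macrophage markers, against 9799 and 12241 CPM and 3143 and 2145 CPM in its group. Defining sensory neuron markers were present in all 15 libraries, with 1330 to 3396 CPM summed over 7 peptidergic nociceptor genes.

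All 10 are G protein-coupled receptors. The opioid, nociceptin, neuropeptide Y, galanin type 1 and somatostatin type 2 receptors couple mainly to inhibitory Gi/o proteins, which lower cyclic AMP, close presynaptic calcium channels and open inwardly rectifying potassium channels, so that activation on a sensory neuron reduces its excitability and transmitter release. The cholecystokinin B receptor couples mainly to Gq and has been linked to reduced opioid analgesia. Gpr151 has sequence similarity to galanin receptors and no established ligand. Injury of a peripheral nerve is known to switch the peptide content of sensory neurons, with galanin and neuropeptide Y rising.

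In wild-type sham ganglia the receptor genes covered a wide range of levels per exon length. Npy2r was highest at 8.76 ± 3.45 CPM per kb (SD, n = 3), followed by Oprl1 at 7.03 ± 2.55 and Npy1r at 6.90 ± 1.99 CPM per kb. The ranges of these 3 genes across libraries overlapped, although Npy2r was above Oprl1 within every library. Sstr2 came next at 2.46 ± 0.863 CPM per kb. Gpr151 (0.851 ± 0.390 CPM per kb), Oprd1 (0.820 ± 0.242) and Galr1 (0.753 ± 0.571) overlapped one another. Oprm1 (0.349 ± 0.195) and Oprk1 (0.240 ± 0.121) overlapped across libraries, although Oprm1 was above Oprk1 within every library. Cckbr was lowest at 0.0739 ± 0.0456 CPM per kb.

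The order changed after injury. In wild-type injured ganglia Gpr151 led at 39.9 ± 12.0 CPM per kb, above every other receptor gene in all 3 libraries. Cckbr followed at 6.79 ± 1.96 CPM per kb and overlapped Npy1r (5.90 ± 0.959) and Npy2r (5.87 ± 2.00). Oprl1 had a level of 2.32 ± 0.524 CPM per kb, and the other 5 were between 0.121 and 0.570 CPM per kb on average. The plot of length-scaled levels shows all 15 libraries.

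**Figure D1:**
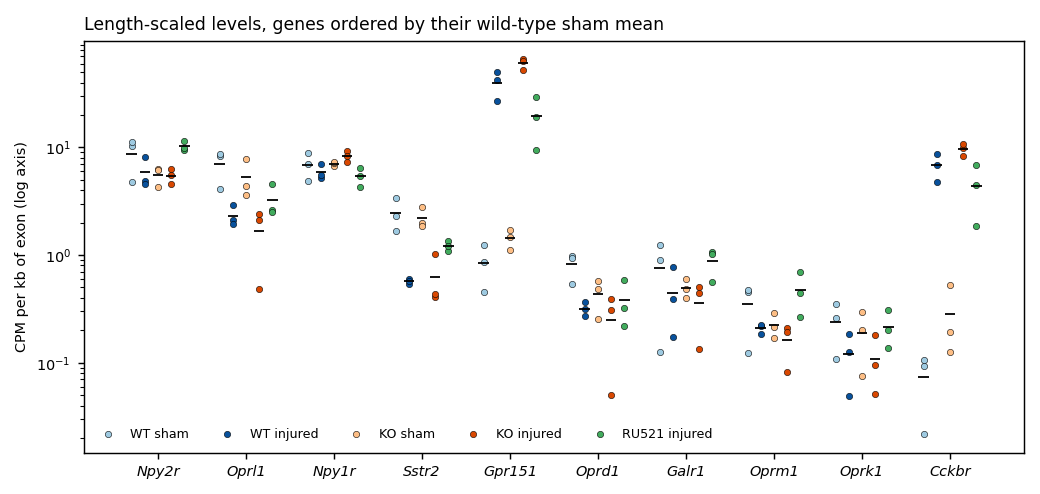
Level of the 10 receptor genes in CPM per kb of exon, on a log axis, in 15 ganglion libraries. Points are libraries, coloured by group, short lines are group means, and genes are ordered by their wild-type sham mean; Gpr151 and Cckbr have the widest gaps between sham and injured libraries.

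Within the opioid family the nociceptin receptor gene made up most of the message per exon length. Oprl1 held 82.4% to 84.1% of the summed length-scaled level of the 4 opioid receptor genes in wild-type sham libraries and 77.1% to 79.1% in wild-type injured libraries, which did not overlap. Knockout sham libraries held 83.6% to 87.9%. Knockout injured libraries held 62.2% to 78.6%, and the lowest of them was replicate 2. Being ratios within a library, these shares do not depend on library scaling, and they were not tested.

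Injury changed 4 of the 10 receptor genes in wild-type ganglia. Gpr151 and Cckbr rose, while Sstr2 and Oprl1 fell (edgeR quasi-likelihood test, Benjamini-Hochberg adjusted p under 0.05). That is 2 of 10 higher, where 8.6% of all genes tested were higher, and 2 of 10 lower, where 7.98% were lower. Because the 10 were listed with earlier results known, such shares are a description only. Libraries of the groups did not overlap for 2 genes that were higher and 3 that were lower, against 17.5% and 15.8% of all genes. The median change of the 10 was -0.75 on the log2 scale, beside 0.000378 over all genes. In bulk RNA, fewer cells of a type and less RNA per cell cannot be told apart.

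In knockout ganglia, too, 2 of 10 receptor genes rose and 2 fell with injury, beside 6.34% and 4.57% of all genes. Gpr151 and Cckbr rose, and Sstr2 and Oprl1 fell. Libraries did not overlap for 3 genes that were higher and 2 that were lower, against 19.7% and 18.5% of all genes. The median change was -0.47, beside -0.00508 over all genes. Without wild-type sham replicate 2, 7 of 10 passed in wild type, with Oprm1, Oprd1 and Npy2r added, and 4 passed in the knockout. Calls rose over all genes too, to 6513 in wild type and 3662 in the knockout, against 3070 and 2021 with all libraries.

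Gpr151 lies on chromosome 18 of GRCm38 (42577881 to 42579652, minus strand) in 1 exon. Wild-type sham libraries had 1.52, 0.809 and 2.19 CPM, and wild-type injured ones 47.7, 89.5 and 74.9 CPM. In the knockout it was 3.05, 1.97 and 2.63 CPM in sham and 116, 113 and 92.7 CPM after injury. Every injured library was far above every sham library. The log2 fold change was 5.53 ± 0.42 (SE) in wild type (edgeR adjusted p = 5.76e-06) and 5.39 ± 0.41 in the knockout (adjusted p = 1.37e-06). Among 18517 genes Gpr151 ranked 23 from the highest fold change in wild type and 23 in the knockout.

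Cckbr, the cholecystokinin B receptor (chromosome 7, 105425731 to 105470898, plus strand), was close to the detection floor in sham ganglia. The wild-type sham libraries held 7, 1 and 5 counts, or 0.305, 0.0623 and 0.267 CPM, and replicate 2 was under the floor of 3 counts. Wild-type injured libraries had 13.7, 24.9 and 19.8 CPM. Knockout libraries had 1.5, 0.359 and 0.555 CPM in sham and 28.1, 30.9 and 23.8 CPM after injury, again with no overlap. The log2 fold change was 6.40 ± 0.60 in wild type (edgeR adjusted p = 3.92e-05) and 5.08 ± 0.53 in the knockout (adjusted p = 2.26e-05). Cckbr ranked 10 from the highest fold change in wild type and 28 in the knockout. The fitted fold of a gene with so few sham counts is uncertain, and leaving out 1 library at a time gave 6.03 to 6.75 in wild type and 4.71 to 5.91 in the knockout.

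Sstr2, a somatostatin receptor that inhibits nociceptor firing (chromosome 11, 113619342 to 113626028, plus strand), moved the other way. Wild-type sham libraries had 4.97, 3.61 and 7.27 CPM, and wild-type injured ones 1.28, 1.16 and 1.22 CPM. In the knockout it was 4.25, 4.0 and 6.03 CPM in sham and 2.19, 0.870 and 0.925 CPM after injury. Injured libraries lay below all sham libraries in both genotypes, and the wild-type injured ones were tightly grouped. The log2 fold change was -2.11 ± 0.38 in wild type (edgeR adjusted p = 0.00314) and -1.83 ± 0.38 in the knockout (adjusted p = 0.00652), ranks 92 and 133 from the lowest of 18517 genes. Scaled to pan-neuronal counts, the knockout change was -1.61 (adjusted p = 0.0618).

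The 250 bases before the RefSeq start of Cckbr, which rose, and of Sstr2, which fell, are shown because these receptors had changes in opposite directions in both genotypes. They are on the plus strand of GRCm38.p6, at chr7:105425481-105425730 and chr11:113619077-113619326, written 5′ to 3′, and come from RefSeq. Capitals mark a match to the cyclic AMP response element TGACGTCA, which reads alike on both strands.
Cckbr: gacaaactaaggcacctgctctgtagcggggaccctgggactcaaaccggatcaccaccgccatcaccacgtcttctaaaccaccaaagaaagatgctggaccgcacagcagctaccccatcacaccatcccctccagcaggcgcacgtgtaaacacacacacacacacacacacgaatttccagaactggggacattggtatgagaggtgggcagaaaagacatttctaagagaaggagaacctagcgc
Sstr2: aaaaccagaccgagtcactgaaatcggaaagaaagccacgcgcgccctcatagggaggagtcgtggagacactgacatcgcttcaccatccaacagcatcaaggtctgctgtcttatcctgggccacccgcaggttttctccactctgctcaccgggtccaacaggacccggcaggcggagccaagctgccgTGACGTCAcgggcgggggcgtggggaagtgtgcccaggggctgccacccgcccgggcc
The match in Sstr2 began 58 bases before the start. Of 32851 RefSeq windows of the same length, 1.55% held TGACGTCA. The AP-1 motif TGANTCA, searched on both strands, was in 6.75% of windows and in neither of these. The search covered 11 windows of 7 of the 10 receptors, without Gpr151, Galr1 and Oprk1. Only Sstr2 held TGACGTCA, and only Npy1r, which was not called, held an AP-1 match. The windows of Oprl1, which also fell, held neither motif. These are letter matches in a short window and say nothing of binding.

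Oprl1, the nociceptin receptor (chromosome 2, 181715016 to 181720985, plus strand), had the highest level per exon length of the opioid receptor genes. It stood at 31.1, 15.4 and 32.7 CPM in wild-type sham and 10.9, 7.94 and 7.22 CPM in wild-type injured libraries. In the knockout it stood at 29.1, 13.7 and 16.6 CPM in sham and 7.89, 1.81 and 9.06 CPM after injury. Groups did not overlap in either genotype, although wild-type sham replicate 2 and knockout injured replicate 2 were well below the rest of their groups. The log2 fold change was -1.60 ± 0.46 in wild type (edgeR adjusted p = 0.0273) and -1.66 ± 0.47 in the knockout (adjusted p = 0.033). This call rested on few libraries. Without wild-type sham replicate 1 or 3, or wild-type injured replicate 2 or 3, the adjusted p in wild type was 0.0797 to 0.103, and without knockout sham replicate 1 or 3, or knockout injured replicate 1 or 2, that in the knockout was 0.0566 to 0.166. Scaled to pan-neuronal counts it was 0.189 and 0.134, and with detected genes as a covariate 0.253 in wild type. The wild-type sham libraries had 26235, 34115 and 26802 detected genes, the high value in replicate 2, against 33275 to 34340 in the injured ones. Detected genes thus largely follow injury in wild type, and that fit cannot separate detected genes from injury.

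The classical opioid receptor genes were at low levels, and none passed the test. Oprd1, the delta receptor (chromosome 4, 132110726 to 132144486, minus strand), had 3.92, 2.18 and 3.79 CPM in wild-type sham and 1.46, 1.27 and 1.10 CPM in wild-type injured libraries. These did not overlap, and the log2 fold change was -1.37 ± 0.55 (edgeR adjusted p = 0.0992). In the knockout the values were 2.33, 1.02 and 1.94 CPM in sham and 1.25, 0.201 and 1.59 CPM after injury, with overlap (-0.79 ± 0.57, adjusted p = 0.427). Without wild-type sham replicate 2 the Oprd1 change in wild type was -1.60 (adjusted p = 0.0393). Without knockout injured replicate 2, a library in neither wild-type group, it stayed at -1.37 (adjusted p = 0.0485).

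Oprm1, the mu receptor and main target of morphine (chromosome 10, 6758506 to 7038198, plus strand), had 3.62, 0.996 and 3.795 CPM in wild-type sham libraries. Wild-type injured libraries had 1.77, 1.49 and 1.81 CPM, all between the lowest sham library, replicate 2, and the other two. The log2 fold change was -0.74 ± 0.49 (edgeR adjusted p = 0.328), and it was -1.14 (adjusted p = 0.0491) without wild-type sham replicate 2. Its sign differed between fits, and with detected genes as a covariate the value was 0.62. That fit cannot separate detected genes from injury in wild type, as given for Oprl1. Scaled to pan-neuronal counts the Oprm1 change was 0.03, but there the median of all genes was 0.50, and Oprm1 was at -0.47 from it. Knockout libraries had 2.33, 1.37 and 1.73 CPM in sham and 1.69, 1.54 and 0.661 CPM after injury (-0.48 ± 0.51, adjusted p = 0.618). Oprm1 shares 96 exon bases with Ipcef1 on the other strand, and reads were counted without strand.

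Oprk1, the kappa receptor (chromosome 1, 5588466 to 5606131, plus strand), had 3.18, 0.996 and 2.41 CPM in wild-type sham and 1.71, 1.16 and 0.451 CPM in wild-type injured libraries. The groups overlapped, at -0.99 ± 0.61 (edgeR adjusted p = 0.289). Knockout libraries had 1.85, 2.69 and 0.693 CPM in sham and 0.877, 0.468 and 1.65 CPM after injury (-0.81 ± 0.63, adjusted p = 0.468). The spread within groups was as wide as the difference between them.

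Npy1r and Npy2r, which respond to neuropeptide Y, did not pass the test in either genotype. Npy1r (chromosome 8, 66697192 to 66706792, plus strand) had 30.6, 16.9 and 24.1 CPM in wild-type sham and 24.1, 17.8 and 19.2 CPM in wild-type injured libraries (-0.23 ± 0.21, edgeR adjusted p = 0.491). In the knockout all 3 injured libraries, at 32.3, 25.2 and 29.0 CPM, were above the sham libraries at 23.3, 24.9 and 25.0 CPM, and the difference was 0.24 ± 0.21 (adjusted p = 0.528). Of the 10 genes, Npy1r had the smallest standard error in these comparisons.

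Npy2r (chromosome 3, 82538383 to 82548084, minus strand), a mainly presynaptic receptor, had 35.0, 16.2 and 37.6 CPM in wild-type sham and 27.7, 16.4 and 15.5 CPM in wild-type injured libraries. Replicate 2 of the sham group lay among the injured libraries. The change was -0.58 ± 0.29 (edgeR adjusted p = 0.181), and -0.88 (adjusted p = 0.0095) without that library. Both Npy1r and Npy2r were slightly positive when scaled to pan-neuronal counts (0.41 and 0.12) or with detected genes as a covariate (0.16 and 0.09). Detected genes largely follow injury in wild type, as given for Oprl1. The pan-neuronal scaling moved the median of all genes to 0.50, and from that median Npy1r was at -0.09 and Npy2r at -0.38. In the knockout Npy2r had 21.4, 20.7 and 14.4 CPM in sham and 18.8, 21.3 and 15.5 CPM after injury (-0.02 ± 0.29, adjusted p = 0.973).

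Galr1, the inhibitory galanin receptor (chromosome 18, 82392380 to 82406777, minus strand), was variable. Wild-type sham libraries had 3.70, 0.374 and 2.67 CPM and wild-type injured ones 2.32, 1.16 and 0.516 CPM (-0.77 ± 0.67, edgeR adjusted p = 0.464). Wild-type sham replicate 2 held the lowest level of all 15 libraries. Knockout libraries had 1.79, 1.20 and 1.46 CPM in sham and 1.5, 1.34 and 0.397 CPM after injury (-0.45 ± 0.69, adjusted p = 0.746). In wild type the sign turned positive with scaling to pan-neuronal counts (0.10) and with detected genes as a covariate (0.58). The covariate fit has the limit given for Oprl1. On the pan-neuronal scale the median of all genes was 0.50, and Galr1 was at -0.40 from it.

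**Figure D2:**
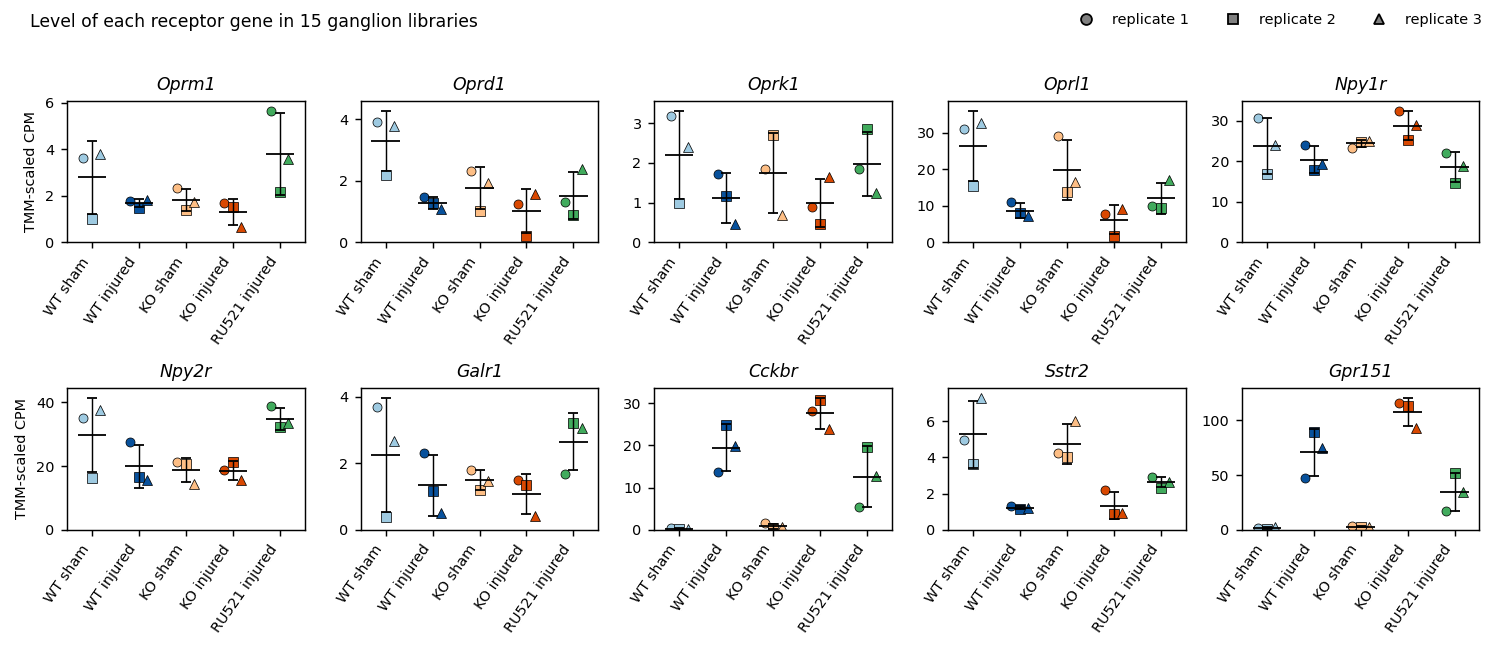
TMM-scaled CPM of each receptor gene in wild-type (WT) sham and injured, knockout (KO) sham and injured, and RU521 injured ganglia. Symbols are the 3 replicates, horizontal lines the means and bars the SD; Gpr151 and Cckbr are near 0 in all 6 sham libraries, and Sstr2 is lower in all injured than in all sham libraries.

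Cell type markers moved with injury as well. In wild type, 7 of 12 pan-neuronal markers fell. Their sums were 8749 to 9112 CPM after injury and 8282 to 18071 CPM after sham surgery. Without the 2 libraries that stood apart 10 of 12 fell, where calls over all genes rose to 7313 from 3070. With all libraries 10 of 10 macrophage and 7 of 7 neutrophil markers rose in wild type. Schwann cell markers summed to 21849 to 23770 CPM in wild-type injured libraries and to 8156 to 16049 CPM in all others. In the knockout, 2 of 12 pan-neuronal markers fell, and 8 of 10 macrophage, 4 of 7 neutrophil and 3 of 7 T and NK cell markers rose. Of 6 fat markers 4 fell there, with sums of 161 to 271 CPM in knockout sham and 18.2 to 52.8 CPM in knockout injured libraries. Without the 2 libraries that stood apart, neither from a knockout, 6 of 12 pan-neuronal markers fell and 1 rose in the knockout. In that fit 10 of 10 macrophage, 7 of 7 neutrophil and 5 of 7 T and NK cell markers rose. Calls over all genes rose there to 4556 from 2021. With counts scaled to the pan-neuronal sum, which moved the median of all genes to 0.50 in wild type and 0.21 in the knockout, Gpr151 was 5.72 and 5.41 and Cckbr 6.64 and 5.13 above that median. Sstr2 was at -1.98 and -1.82 from that median, and Oprl1 at -1.42 and -1.60. The part of these cell markers in the receptor changes was not tested beyond this.

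**Figure D3:**
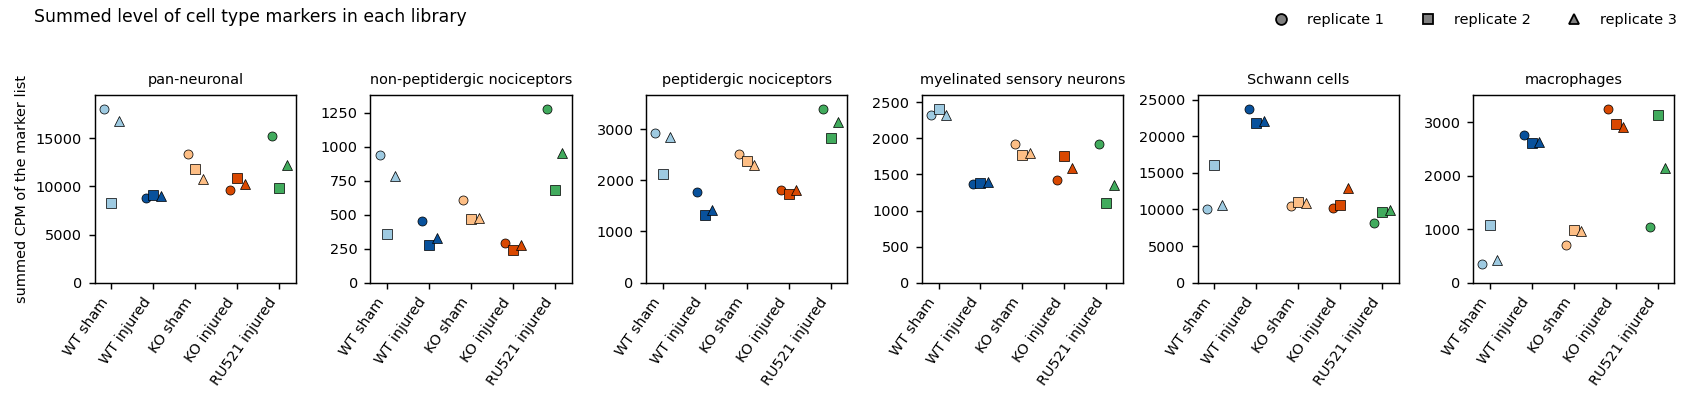
Summed TMM-scaled CPM of 6 marker lists in each of the 15 libraries, by group and replicate. Wild-type sham replicate 2 has the lowest pan-neuronal sum of its group, macrophage sums are higher in the injured than in the sham libraries except RU521 replicate 1, which lies apart from its group in both lists.

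The knockout was compared with wild type in sham ganglia to see whether the receptors differed before injury. None of the 10 passed the test, beside 0.108% of genes higher and 0.027% lower, and DESeq2 called 0 as well. At an unadjusted p under 0.05 there were 2, beside 8.68% of all genes. Cckbr was 1.83 ± 0.71 higher (edgeR adjusted p = 0.452), with all 3 knockout libraries above the wild-type ones; the libraries of both groups did not overlap in that direction for 1 of 10 receptors and 6.65% of all genes, and in the other direction for none, against 5.24%. Knockout sham replicate 1 held 25 Cckbr counts against 6 and 8, and without it the difference was 0.99. Of 6 fat markers 3 were higher in knockout sham libraries, with sums of 161 to 271 CPM against 12.2 to 69.2 CPM in wild-type sham, and their part in the differences was not tested. Npy2r was -0.65 ± 0.29 (adjusted p = 0.531), and without wild-type sham replicate 2 it was -0.94 and passed (adjusted p = 0.0346). Without that library 974 genes passed, against 25 with all libraries. Pan-neuronal markers summed to 10809 to 13337 CPM in knockout sham libraries, against 16788 and 18071 CPM in wild-type sham replicates 3 and 1. With all libraries no pan-neuronal, macrophage or neutrophil marker passed. Without both libraries that stood apart, 5 of 12 pan-neuronal markers were lower in knockout sham, and 1939 genes passed. There 7 of 10 macrophage and 7 of 7 neutrophil markers were higher, and their part was not tested.

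In injured ganglia, too, none of the 10 passed between genotypes, beside 1.39% of genes higher and 0.81% lower. DESeq2 called 0, and 1 had an unadjusted p under 0.05, beside 13.2% of all genes. For 2 of 10 every knockout library was above every wild-type one, against 16% of all genes, and for none was every knockout library lower, against 14.3%. These were Npy1r, at 0.50 ± 0.21 (edgeR adjusted p = 0.307), and Gpr151, at 0.60 ± 0.33 (adjusted p = 0.467). Gpr151 levels of 92.7 to 116 CPM in the knockout compare with 47.7 to 89.5 CPM in wild type. With sample quality weights in limma-voom, Npy1r passed (0.53, adjusted p = 0.0201).

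Whether injury acted differently in the knockout was tested by the interaction term. None of the 10 passed, none had an unadjusted p under 0.05, and DESeq2 called 0, beside 0.308% of genes higher and 0.14% lower and 9.78% with an unadjusted p under 0.05. Cckbr had the largest difference, -1.32 ± 0.82 (edgeR adjusted p = 0.66), followed by Oprd1 at 0.58 ± 0.79 and Npy2r at 0.55 ± 0.41. For Gpr151 the difference was -0.14 ± 0.54 and for Oprl1 -0.06 ± 0.64. The standard errors of the 10 differences ran from 0.30 for Npy1r to 0.96 for Galr1, so small differences were not detectable at this depth and number of libraries. Limma-voom with sample quality weights called Npy2r (1.0, adjusted p = 0.0396).

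**Figure D4:**
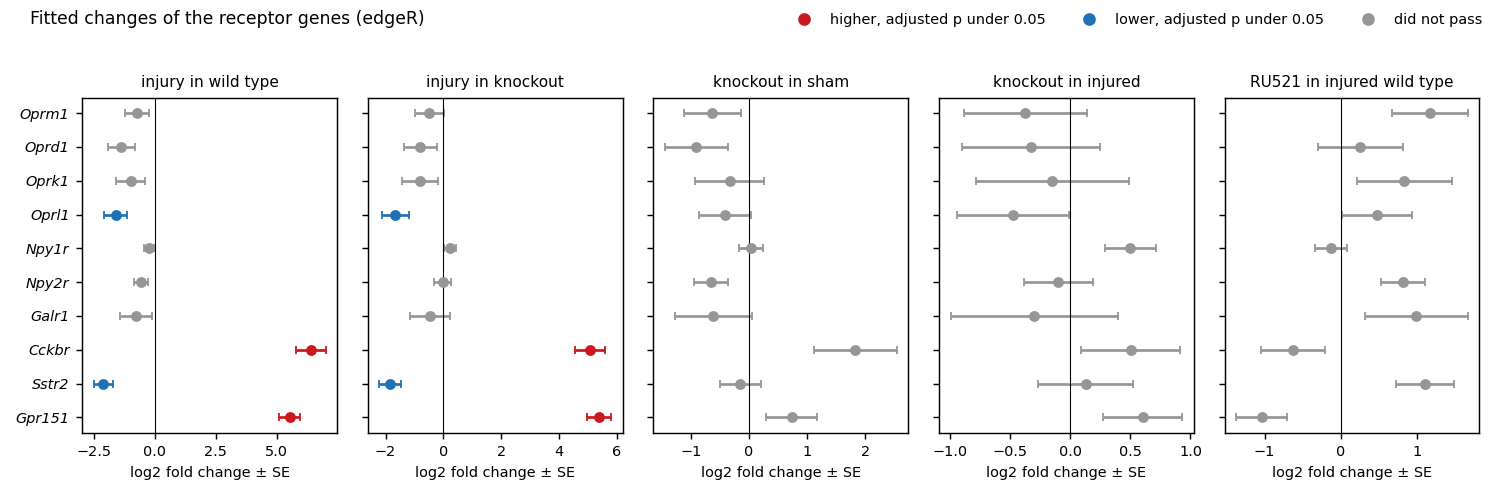
Fitted log2 fold change of each receptor gene in 5 comparisons, with its standard error as bars; the scale differs between panels. Red and blue points passed the test, which occurs for Gpr151, Cckbr, Sstr2 and Oprl1 in both injury comparisons and for no gene in the other 3.

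RU521 was compared with injury alone in wild types, to see the effect of cGAS inhibition at the injured nerve on the ganglion. None of the 10 receptor genes passed, beside 5.1% of genes higher and 4.48% lower. At an unadjusted p under 0.05 there were 4, beside 25.3% of all genes, and DESeq2 called 3. Libraries did not overlap for 3 that were higher, against 16.1% of all genes, and for none that was lower, against 16.9%. The median change of the 10 was 0.64, beside -0.0254 over all genes.

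Gpr151 stood at 16.9, 52.2 and 34.2 CPM with RU521, against 47.7, 89.5 and 74.9 CPM without. RU521 replicates 1 and 3 were below all untreated libraries, and replicate 2 was above the lowest of them. The difference was -1.04 ± 0.33 (edgeR adjusted p = 0.0617). It passed without RU521 replicate 2 (-1.46, adjusted p = 0.0103) and with DESeq2 (-1.02, adjusted p = 0.0278). It also passed without wild-type sham replicate 2 (-1.03, adjusted p = 0.0346), which is in neither group compared and enters only through the shared fit. Leaving that library out gave 3457 genes for RU521, against 1774 with all libraries. Without RU521 replicate 1, the library that stood apart, the Gpr151 difference was -0.71 (adjusted p = 0.217). Cckbr had 5.29, 19.7 and 12.8 CPM with RU521 and overlapped the untreated libraries (-0.63 ± 0.42, adjusted p = 0.379), and it was -0.26 without RU521 replicate 1.

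Sstr2, which was low after injury, stood at 2.91, 2.33 and 2.63 CPM with RU521 and at 1.28, 1.16 and 1.22 CPM without. All RU521 libraries were above all untreated injured ones and below all wild-type sham ones, which began at 3.61 CPM. The difference was 1.10 ± 0.38 (edgeR adjusted p = 0.0816), and it passed with DESeq2 (1.11, adjusted p = 0.0381). It also passed without wild-type sham replicate 2 (adjusted p = 0.0445), a library in neither group compared. Without RU521 replicate 1 it was 1.02 (adjusted p = 0.233).

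Npy2r had 38.9, 32.2 and 33.5 CPM with RU521, all above the 15.5 to 27.7 CPM of the untreated injured libraries. The difference was 0.81 ± 0.29 (edgeR adjusted p = 0.0859), with DESeq2 0.82 (adjusted p = 0.0403). It passed without wild-type injured replicate 1 (adjusted p = 0.0409), and was 0.72 (adjusted p = 0.26) without RU521 replicate 1. It also passed without wild-type sham replicate 2 (adjusted p = 0.0161), a library in neither group compared. Npy1r had 22.0, 14.7 and 18.9 CPM and overlapped the untreated group, with replicate 2 below it (-0.14 ± 0.21, adjusted p = 0.747). Npy2r therefore held 64.3%, 69.1% and 64.4% of the summed length-scaled level of both genes with RU521, against 45.2% to 53.9% in untreated injured libraries. The same share was 49.6% to 61.5% in wild-type sham, 37.0% to 48.4% in knockout sham and 35.3% to 46.3% in knockout injured libraries. These shares were not tested.

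Among the opioid receptors, Oprm1 stood at 5.64, 2.14 and 3.57 CPM with RU521, above all untreated injured libraries at 1.49 to 1.81 CPM. The difference was 1.16 ± 0.49 (edgeR adjusted p = 0.151), and 0.76 without RU521 replicate 1. Oprl1 (9.92, 9.33 and 17.0 CPM; 0.47 ± 0.46), Oprd1 (0.25 ± 0.56), Oprk1 (0.83 ± 0.62) and Galr1 (0.99 ± 0.67) overlapped the untreated group, and their adjusted p-values in edgeR were 0.395 to 0.828. Scaled to pan-neuronal counts the sign of Oprd1 turned to -0.21, but there the median of all genes was -0.44, and Oprd1 was 0.24 above it.

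Cell markers moved with RU521. Of the markers, 6 of 7 for non-peptidergic nociceptors were higher, with sums of 680 to 1279 CPM against 274 to 455 CPM, as were 5 of 12 pan-neuronal markers. All 8 Schwann cell markers and 3 of 10 macrophage markers were lower, and the Schwann cell sums were 8156 to 9942 CPM against 21849 to 23770 CPM. Scaling to pan-neuronal counts moved the median of all genes to -0.44. On that scale Npy2r was 0.80, Sstr2 1.09 and Oprm1 1.09 above the median, and Gpr151 -0.91 from it, and none passed (adjusted p = 0.417, 0.394, 0.395 and 0.0768). The part of the markers in these differences was not tested beyond this.

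The peptides that act on these receptors are made partly within the ganglion. Of 11 ligand genes listed, 8 were tested. In wild type 2 rose and 1 fell with injury (median 0.24), beside 8.6% and 7.98% of all genes. In the knockout 3 rose and 1 fell (median 0.63), beside 6.34% and 4.57% of all genes. Without the 2 libraries that stood apart, 3 of 8 rose and 1 fell in wild type, and likewise in the knockout. In that fit 7313 genes passed in wild type and 4556 in the knockout, against 3070 and 2021 with all libraries. Gal, the galanin precursor, was at 22.7, 14.3 and 18.2 CPM in wild-type sham and 263, 484 and 441 CPM in wild-type injured libraries (4.42 ± 0.32, edgeR adjusted p = 3.05e-06), and rose by 4.83 ± 0.32 in the knockout. Npy was at 1.48, 1.37 and 1.44 CPM and then 36.3, 103 and 78.8 CPM (5.66 ± 0.47, adjusted p = 1.05e-05), and rose by 5.82 ± 0.48 in the knockout. For both peptides the ligand gene rose while Galr1, Npy1r and Npy2r did not pass.

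Sst, the precursor of the ligand of Sstr2, fell together with it. Wild-type sham libraries had 16.8, 6.91 and 15.2 CPM and wild-type injured ones 7.39, 3.25 and 4.64 CPM, where replicate 1 overlapped the lowest sham library (-1.35 ± 0.39, edgeR adjusted p = 0.0284). In the knockout Sst changed by -1.35 ± 0.41 (adjusted p = 0.0446). Sst is also one of the pruriceptor markers used here, a marker of itch neurons.

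Among the opioid peptide genes, Penk passed for injury in the knockout with all libraries used. Penk, the enkephalin precursor, was at 10.1, 27.9 and 11.4 CPM in wild-type sham and 17.9, 16.5 and 19.2 CPM in wild-type injured libraries, with the high value in sham replicate 2 (0.13 ± 0.32, edgeR adjusted p = 0.827). In the knockout, where sham libraries had 11.2, 12.8 and 11.4 CPM, Penk rose to 28.9, 24.1 and 23.5 CPM (1.11 ± 0.33, adjusted p = 0.0404). The interaction for Penk was 0.99 ± 0.46 (adjusted p = 0.508), so the genotypes were not shown to differ. Pnoc, the nociceptin precursor, stayed at or below 1.79 CPM in all libraries (-1.63 ± 0.70 in wild type, adjusted p = 0.123). Pdyn, Pomc and Cck were at low levels, up to 1.25, 2.52 and 1.06 CPM, and did not pass in any comparison.

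With RU521, 1 of 8 ligand genes tested was higher and 1 lower, beside 5.1% and 4.48% of all genes. Sst was at 25.1, 12.7 and 17.8 CPM, above all untreated injured libraries (1.87 ± 0.39, edgeR adjusted p = 0.00974). Gal was at 112, 257 and 149 CPM, below all of them (-1.20 ± 0.28, adjusted p = 0.0148). Npy was at 16.9, 60.4 and 31.8 CPM and overlapped them (-1.0 ± 0.37, adjusted p = 0.0963).

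**Figure D5:**
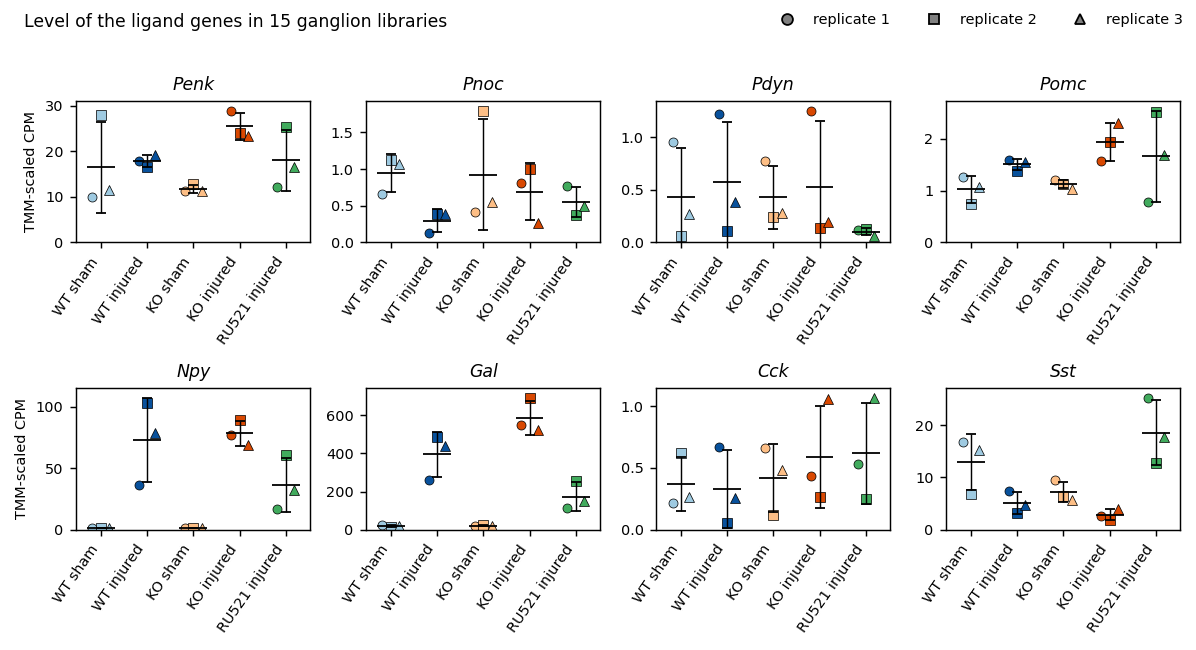
TMM-scaled CPM of 8 ligand genes in the 15 ganglion libraries, with symbols for the replicates, lines for means and bars for the SD. Npy and Gal are near 0 on this scale in all sham libraries and high after injury, and Sst is lower in most injured libraries without RU521.

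Receptors closest in family to the 10 were largely at low levels. Of 9 listed (the other neuropeptide Y, galanin, cholecystokinin and somatostatin receptors) 6 were tested. In wild type their adjusted p-values in edgeR were 0.125 to 0.774, with a median change of -0.44. Cckar, the cholecystokinin A receptor, was well expressed at 34.5, 14.4 and 28.0 CPM in wild-type sham and 28.1, 54.1 and 36.0 CPM in wild-type injured libraries, which overlapped (0.62 ± 0.27, edgeR adjusted p = 0.125). In the knockout it rose from 18.7, 26.7 and 23.4 CPM to 41.5, 45.7 and 42.3 CPM (0.91 ± 0.27, adjusted p = 0.0411). Its knockout groups did not overlap, and the interaction for Cckar was 0.29 ± 0.38 (adjusted p = 0.869).

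Of 42 other neuropeptide receptor genes 32 were tested. In wild type 3 rose and 2 fell, shares near the 8.6% and 7.98% of all genes, and the median change was -0.13. Without the 2 libraries that stood apart 4 rose and 7 fell of 33 tested, where calls over all genes rose to 7313 from 3070. Qrfpr, the receptor for the RFamide peptide QRFP, rose by 4.20 ± 0.75 (edgeR adjusted p = 0.00299), with 0, 0.187 and 0.160 CPM in wild-type sham and 2.14, 2.54 and 1.61 CPM in wild-type injured libraries. The sham libraries held 0, 3 and 3 counts of Qrfpr, so its fitted fold depends on the prior count. Mchr1, a melanin-concentrating hormone receptor, rose by 1.38 ± 0.26 and Trhr, the thyrotropin-releasing hormone receptor, by 1.59 ± 0.46. Mrgpra3 (-1.27 ± 0.32) and Mrgprd (-1.33 ± 0.37), which mark itch and non-peptidergic neurons, fell.

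In the knockout Qrfpr rose by 4.18 ± 0.69 and Mchr1 by 1.44 ± 0.26, and 5 of 32 receptors fell, beside 4.57% of all genes: Ntsr2 (-1.88 ± 0.40), Mrgprb5 (-1.48 ± 0.34), Mrgprd (-1.37 ± 0.37), Hcrtr2 (-1.0 ± 0.27) and Nmur1 (-2.10 ± 0.63). With RU521, 3 were higher and 2 lower, beside 5.1% and 4.48% of all genes. Higher were Mrgpra3 (1.87 ± 0.32), Mrgprb5 (1.54 ± 0.32) and Mrgprd (1.47 ± 0.37). Mchr1 (-1.56 ± 0.26) and Trhr (-1.66 ± 0.47) were lower. Of these, Trhr, Hcrtr2 and Nmur1 were named after their values were seen.

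Genes that carry, receive or end inhibitory receptor signals were examined as well. Of 29 genes of Gi/o proteins, their channels, cyclases, arrestins, receptor kinases and RGS proteins, 27 were tested. In wild type 8 fell and 2 rose with injury (median -0.49), beside 7.98% and 8.6% of all genes, and 7 of 12 pan-neuronal markers fell. Without the 2 libraries that stood apart 12 fell and 3 rose of 28, where calls over all genes rose to 7313 from 3070. Gnao1, the neuronal Go alpha subunit, was at 402, 274 and 402 CPM in sham libraries, against 190, 134 and 144 CPM in injured ones (-1.20 ± 0.27, edgeR adjusted p = 0.00852). Rgs10 (-0.88 ± 0.19), Rgs8 (-1.39 ± 0.32) and the receptor kinase Grk2 (-0.95 ± 0.23) fell as well. So did the effector channel genes Kcnj3 (-1.11 ± 0.33) and Cacna1b (-0.96 ± 0.30), while Gnai3 (0.60 ± 0.15) and Arrb2 (0.51 ± 0.15) rose; these 4 were named after their values were seen.

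In the knockout 2 of the 27 fell, Rgs10 (-0.84 ± 0.19) and Gnao1 (-1.04 ± 0.27), and none rose, which is near the 4.57% and 6.34% of all genes. Without the libraries that stood apart, 8 fell and 4 rose of 28, where calls over all genes rose to 4556 from 2021. With RU521, 8 were higher and none lower (median 0.48), beside 5.1% and 4.48% of all genes, and 9 were higher and 2 lower of 28 without those libraries. Gnao1 was at 575, 225 and 389 CPM with RU521, above all untreated injured libraries (1.34 ± 0.27, edgeR adjusted p = 0.0073), and Rgs10 (1.09 ± 0.19) and Rgs8 (1.86 ± 0.32) were higher too.

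Genes with the most similar pattern to each receptor were sought among 14002 tested genes with a mean of at least 1 CPM. The receptors themselves and predicted, mitochondrial, ribosomal protein and clone-named genes were left out. The closest genes had the smallest root mean square difference of centred log2 CPM over the 15 libraries, which share their scaling and depth. For Gpr151 these were Npy (0.454), Gal (0.573) and the injury-induced transcription factor Atf3 (0.672). The spread of Gpr151 itself on this scale was 2.57. For Cckbr they were Npy (0.781), Crh (0.910) and Atf3 (0.966), with a spread of 2.88. None of the other 8 receptors had Gal, Npy or one of the 8 injury genes among its closest 3.

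Npy, Gal and Atf3 were picked for their likeness to Gpr151 or Cckbr over these libraries, so the order they share within a group is a description. In wild-type injured ganglia, replicate 1 was lowest and replicate 2 highest for Gpr151, Cckbr, Gal, Npy and Atf3, with Atf3 at 178, 377 and 321 CPM. With RU521, replicate 1 was again lowest and replicate 2 highest for all 5, with Atf3 at 64.8, 234 and 137 CPM. In knockout injured ganglia replicate 3 was the lowest for all 5, while Gpr151 was highest in replicate 1 and Cckbr and Atf3 in replicate 2, with Atf3 at 433, 454 and 399 CPM. Of the 8 injury genes listed, 8 rose with injury in wild type and 8 in the knockout, and with RU521 2 were lower, Sprr1a (-1.37 ± 0.32) and Csf1 (-1.33 ± 0.31).

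The receptors that did not rise resembled genes of other patterns. Sstr2 was closest to Htr3a (0.384), a serotonin receptor channel, and to Igsf21 (0.388) and Hhatl (0.389), against its own spread of 0.951. Oprl1 was closest to Jph3 (0.379) and Disp3 (0.419). Oprm1 was closest to Disp2 (0.284) and Npy2r to Far2 (0.159). The spread of Npy1r was only 0.313, and its closest gene was Lipa (0.188). For Oprd1, Oprk1 and Galr1 the closest genes were Ankdd1b (0.404), Cfap61 (0.392) and Pcdhb11 (0.566).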

How the data were processed

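Bulk RNA of 15 ganglion libraries (5 groups of 3, 3 days after injury) was analysed from the deposited table of raw counts. Per the submitters' processing notes, Trim Galore served for trimming and STAR for alignment, on the GRCm38 (mm10) build, with versions not given in the sources used here. Per the file headers, the authors made the counts with featureCounts 2.0.1 over exons of Ensembl release 101, from paired primary alignments of mapping quality 10 or more, without strand. The exon length of each gene comes from the same deposited table. Counting without strand adds reads of overlapping genes on the other strand. Totals of 14813365 to 22414750 counts put a floor of 3 counts at 0.131 to 0.208 CPM, which covers counting error only.

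Levels are CPM after TMM scaling, or CPM per kb (1000 bp) of exon. Tests were edgeR 4.0.16 quasi-likelihood tests in R 4.3.3 on all 15 libraries, after filterByExpr (minimum count 10, minimum total 15), with 1 coefficient per group. Benjamini-Hochberg adjustment ran over 18517 genes, with a threshold of 0.05, and the SE is the fold change divided by the root of F. The script was tested on simulated data. Alternatives were DESeq2 1.42.0, its size factors in edgeR, limma 3.58.1 voom with sample quality weights, no low count filter, only the groups compared, a replicate block, detected genes as a covariate, scaling to pan-neuronal counts, and each library left out. Comparisons share groups: both injured wild-type comparisons use the same injured libraries.

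The 10 receptors and the gene lists were chosen with earlier results of these data known. All receptors are named. From each other list up to 4 called genes with the smallest p in either injury comparison are named, or the 2 of highest level where none was called, and others are marked as named after their values were seen. The retinal samples of the series were not used here.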

Additional observations from a re-analysis of the deposited data

How the results depend on the processing

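Gpr151 and Cckbr were called in both injury comparisons under every setting named here and without any 1 library, and so was Sstr2, apart from the knockout with scaling to pan-neuronal counts. Over all alternatives 1323 single-receptor values kept their direction and side of the threshold, 38 passed newly, 12 no longer passed, and 66 uncalled values changed sign. Wild-type sham replicate 2 had the most weight, and the cause of the changes below was not tested. In the order injury in wild type, injury in knockout, knockout in sham, knockout in injured, interaction and RU521, leaving out 1 library gave 3 to 7, 3 to 4, 0 to 1, 0 to 0, 0 to 0 and 0 to 3 receptors, and 1240 to 6513, 869 to 3662, 2 to 974, 194 to 970, 37 to 666 and 476 to 3457 genes, where all libraries gave 4, 4, 0, 0, 0 and 0 receptors and 3070, 2021, 25, 407, 83 and 1774 genes. Without the low count filter 1 receptor (Cckbr) and 596 genes passed for knockout in sham, 711 genes for knockout in injured, 423 for the interaction, and 2 receptors (Npy2r and Gpr151) for RU521. DESeq2 called 259 genes for knockout in sham, 791 for knockout in injured, 295 for the interaction, and 3 receptors and 2892 genes for RU521. Limma-voom with sample quality weights called 10 receptors and 9257 genes for injury in wild type, 4412 genes for injury in knockout, 2 receptors (Oprm1 and Npy2r) and 3008 genes for knockout in sham, 1 receptor and 2101 genes for knockout in injured, 1 receptor and 1996 genes for the interaction, and 6 receptors and 6186 genes for RU521. With only the groups compared, 1702, 4102, 2 and 1877 genes passed in the first 4 comparisons. With detected genes as a covariate the first 5 gave 849, 3070, 192, 1373 and 375 genes. That covariate largely follows injury in wild type. Scaling to pan-neuronal counts gave 1811, 596, 6, 89, 9 and 436 genes, and 2 receptors for injury in knockout. Without both libraries that stood apart, chosen after seeing the data, 7 receptors and 7313 genes passed for injury in wild type, 4556 genes for injury in knockout, 1 receptor and 1939 genes for knockout in sham, 1510 genes for knockout in injured, 1468 for the interaction, and 1 receptor (Npy2r, adjusted p = 0.0481 in edgeR) for RU521. The replicate numbers were not used as pairs in the main fit. Of 30 pairs sharing a number, 6 correlated above 0.1 (r from -0.107 to 0.266). These 6 were all among wild-type sham, knockout sham and RU521 injured libraries, in replicates 1 and 2, and the reason was not tested. With the replicate block 71 genes passed for knockout in sham, 130 for the interaction, and 1 receptor (Gpr151) for RU521.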
